A study of Mus musculus with 12 samples.

Results

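Oxidative phosphorylation subunit genes encode the proteins of the mitochondrial respiratory chain and the ATP synthase. They were taken from the 18193 genes that the platform annotation named by 1 symbol, through symbol patterns for 5 complexes, with no measured value used. The patterns took 81 genes on 168 probe sets: 35 for complex I (Ndufa, Ndufb, Ndufc, Ndufs, Ndufv and Ndufab1), 4 for complex II (Sdh), 8 for complex III (Uqcr), 17 for complex IV (Cox4 to Cox8) and 17 for complex V (Atp5). Of these, 78 were bright enough to be tested, 74 of them above the median of all values on all 12 arrays and 4 on fewer. The 3 that were not tested were the complex IV isoforms Cox7a1, Cox7b2 and Cox8b, whose highest intensities on any array were 90.9, 37.1 and 86.2. Some subunits, among them those encoded by mitochondrial DNA, were not analysed here.

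Complexes I and II pass electrons to ubiquinone, complex III moves them to cytochrome c, and complex IV hands them to oxygen. Complexes I, III and IV pump protons across the inner mitochondrial membrane, and complex V uses the returning protons to make ATP. Myeloid progenitors that divide rely on this chain for ATP and precursors, and activated macrophages and neutrophils are known for leaning on glycolysis.

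Stat5a and Stat5b were either deleted in the blood cells of the mice or intact, and beyond the letters GMP the labels do not name the cells that gave the RNA. STAT5A and STAT5B are paired transcription factors downstream of GM-CSF and related receptors, and the series asks how far they govern granulocyte formation driven by GM-CSF. The 4 groups were knockout treated, knockout untreated, control treated and control untreated, with 3 arrays each. The label of each sample says with or without GMP, letters that could name an agent or the cells (granulocyte-macrophage progenitors), so only the word treatment is used. Titles of dates 1 and 3 carry GMP on treated and untreated arrays alike, beside a plus or minus sign. The deleting transgene, the strain, the age, the dose and the duration are not given in the sources used here. Sample titles place the arrays on 3 dates with 1 array of every group on each, and on date 2 the number tag in the title of the knockout treated array differs from that of the other 3. Whether samples of a group came from separate animals is not stated, so each p-value reflects the spread among these samples alone, which may be technical.

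Markers of granulocyte-macrophage progenitors such as Mpo and Kit were present, with 10 of 10 above the median of all values. On treatment 8 of the 10 lay below 0 in each genotype, with median log2 changes of -0.38 in knockout and -0.13 in control cells. None passed the threshold used below, and the lowest change in knockout cells was -1.87 for Ms4a3. Without date 2 the medians were -0.09 and -0.07, and 1 marker passed as lower in each genotype. Stat5a read 26.7 to 101 on the 6 knockout arrays and 375 to 1147 on the 6 control arrays, and Stat5b read 1.80 to 60.5 on knockout and 287 to 1531 on control arrays. Which part of either gene was deleted is not given in the sources used here. Date 2 stood apart: the ratio of 3′ to 5′ probe signal for Actb was 20.8 to 266 on its 4 arrays and 1.14 to 2.05 on the remaining 8. The Gapdh ratio was 28.2 to 80.7 on date 2, against 1.56 to 3.90 elsewhere. Results are therefore given by date and also without date 2. The summed signal of 6 measured T and NK lineage markers was 1919 to 5757 in knockout treated and 8132 to 9779 in knockout untreated cells, and 2228 to 4920 in control treated and 7856 to 8829 in control untreated cells. Of these markers 4 exceeded the median of all values on any array, and Cd3d and Cd3g never did. Most of the sum was Nkg7, a cytotoxic granule gene. Nkg7 read 1169 to 5597 in knockout treated and 8002 to 9645 in knockout untreated cells. In control cells Nkg7 read 1425 to 4667 with treatment and 7710.5 to 8613 without. Of the 3 tested markers, 2 lay below 0 on treatment in knockout cells and 1 in control cells. In control cells 1 of the 3 rose past the threshold used below, with a highest log2 change of 1.47. Thy1 read 227, 532 and 147 in control treated cells on dates 1, 2 and 3, against 91.1, 108 and 65.2 without treatment. The highest change in knockout cells was 0.98 and did not pass. In knockout cells Klrd1 read 47.3, 665 and 88.2 with treatment, against 48.6, 91.1 and 71.9 without. The summed signal of 7 monocyte and macrophage markers was 14418 to 25934 in knockout treated and 4742 to 6806 in knockout untreated cells, and 5442 to 16723 in control treated and 3512 to 6736 in control untreated cells. Of these, 5 exceeded the median, and the macrophage complement genes C1qa and C1qb never did. Most of this sum was Cd14 and Lyz2. Treated minus untreated on the log2 scale was 3.47 for Cd14 and 1.54 for Lyz2 in knockout cells, against 0.34 for Cd68, -0.30 for Mrc1 and -0.74 for Adgre1. The control differences were 2.63 for Cd14, 0.14 for Lyz2, -0.35 for Cd68, 1.13 for Mrc1 and 0.58 for Adgre1. The summed signal of 6 measured B lineage markers was 385 to 732 in knockout treated and 797 to 1167 in knockout untreated cells, and 425 to 499 in control treated and 649.98 to 1052 in control untreated cells, with Ebf1 and Igll1 never above the median. The largest part of this sum was Cd79b, at 232 to 520 in knockout treated and 506 to 873 in knockout untreated cells. Of 4 tested B lineage markers, 2 lay below 0 on treatment in knockout cells, with a highest log2 change of 0.29, and 4 in control cells. Sums of neutrophil granule markers were 12326 to 45582 in knockout treated and 7845 to 28312 in knockout untreated cells. They, and the sums of erythroid, megakaryocyte, and mast cell and basophil markers, overlapped between treated and untreated cells of both genotypes with dates pooled. Of 4 tested mast cell and basophil markers, 2 were lower and 0 higher on all 3 dates in each genotype. In knockout cells 1 of them passed as lower. Of 4 tested erythroid markers, 1 was lower and 1 higher on all 3 dates in knockout cells. In control cells 2 were lower and 1 higher, and 1 passed as lower. The largest part of the erythroid sum, Car2, was higher with treatment on every date in both genotypes. Stroma and endothelium markers overlapped in control cells, and in knockout cells summed to 338 to 386 with treatment and 420 to 511 without. The part of these cell types in the differences below was not tested. In RNA of many cells, fewer cells of a type and less RNA per cell cannot be told apart.

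As a group the subunit genes had a lower signal in treated than in untreated cells of both genotypes, on every date. The mean of log2(intensity + 13) over the 78 tested genes was 11.58, 11.76 and 11.38 on the knockout treated arrays of dates 1, 2 and 3, against 11.70, 12.47 and 11.92 on the knockout untreated arrays. It was 11.37, 12.32 and 11.22 on the control treated arrays, against 11.61, 12.62 and 11.54 on the control untreated arrays. Treated minus untreated within a date was -0.12, -0.71 and -0.54 in knockout cells and -0.25, -0.29 and -0.32 in control cells on dates 1, 2 and 3. With dates pooled the array means of treated and untreated cells overlapped, and the date 2 array had the highest mean of each group. Over all 11815 genes tested the array means lay much closer together, with 9.16 ± 0.03 in knockout treated and 9.10 ± 0.04 in knockout untreated cells, and 9.12 ± 0.13 in control treated and 9.11 ± 0.08 in control untreated cells (SD, n = 3). The arrays share a 2% trimmed mean near 500, which limits how far these all-gene means can differ. Their closeness is therefore no test of the subunit genes.

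**Figure D1:**
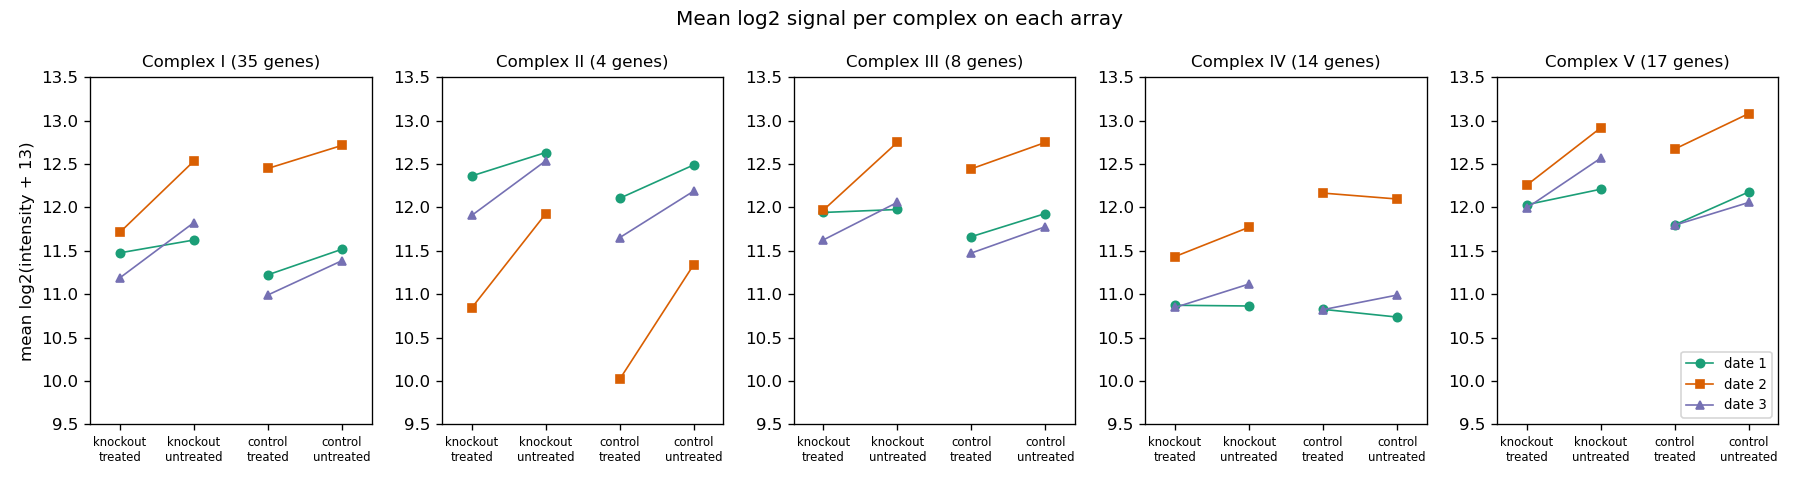
Mean log2(intensity + 13) of the tested genes of each complex (y axis) on each of the 12 arrays, by group (x axis); points of 1 date share a colour and marker, and a line joins the treated and the untreated array of a genotype on that date. Complexes I, II, III and V were lower in treated than in untreated cells on all 3 dates in both genotypes, and complex IV was not: on date 1 its mean was 10.87 in knockout treated against 10.86 in knockout untreated cells, and 10.83 in control treated against 10.74 in control untreated cells.

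Treatment of knockout cells was followed by a fall of 5 subunit genes and a rise of 1. These 6 of 78 genes passed an adjusted p of 0.05 in limma, that is 7.69%, where 11.2% of all genes tested passed. By direction, 6.41% of the subunit genes fell against 4.45% of all genes tested, and 1.28% rose against 6.73%. The genes that fell were Cox6b2, Cox7c, Ndufa4, Atp5g1 and Ndufa3, and the gene that rose was Cox6a2. The median log2 change was -0.43 over the 78 genes and -0.02 over all genes tested, and 72 of the 78 (92.3%) lay below 0 against 51.8% of all genes. At an unadjusted p under 0.05, 27 of the 78 (34.6%) were lower against 13.4% of all genes, and 42 (53.8%) were lower on all 3 dates against 27.0% of all genes. Those higher on all 3 dates numbered 3 (3.85%), against 24.5%. With each array centred on its own median the median of all genes moved to -0.13 and that of the 78 to -0.53, and with quantile normalization they were -0.09 and -0.38. Without date 2 the median of the 78 was -0.32, with 65 below 0 (83.3%, against 50.5% of all genes), and 7 genes passed (8.97%, against 11.7% of all genes), 4 of them among the 6 named.

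Treatment of control cells was followed by a fall of 3 subunit genes and a rise of 1. These 4 of 78 genes passed, 5.13% against 6.77% of all genes tested, with Cox6a2 higher and Cox7c, Cox6b2 and Ndufa3 lower. By direction, 3.85% of the subunit genes fell against 2.56% of all genes, and 1.28% rose against 4.21%. The median log2 change was -0.32 over the 78 and -0.04 over all genes, with 58 of 78 (74.4%) below 0 against 53.2%. At an unadjusted p under 0.05, 22 (28.2%) were lower against 11.8% of all genes, and 43 (55.1%) were lower on all 3 dates against 27.6%. Those higher on all 3 dates numbered 4 (5.13%), against 23.1%. Under median centring and quantile normalization the median of the 78 was -0.32 and -0.33. Without date 2 it was -0.37, with 68 below 0 (87.2%, against 52.8% of all genes), and 6 genes passed (7.69%, against 9.7%), 2 of them among the 4 named. Without date as a block in the fit, 2 subunit genes passed in knockout cells (2.56%, against 2.48% of all genes) and 1 in control cells (1.28%, against 1.4%). Both treatment comparisons pair arrays of the same dates, and the difference between them is given after the complexes.

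**Figure D2:**
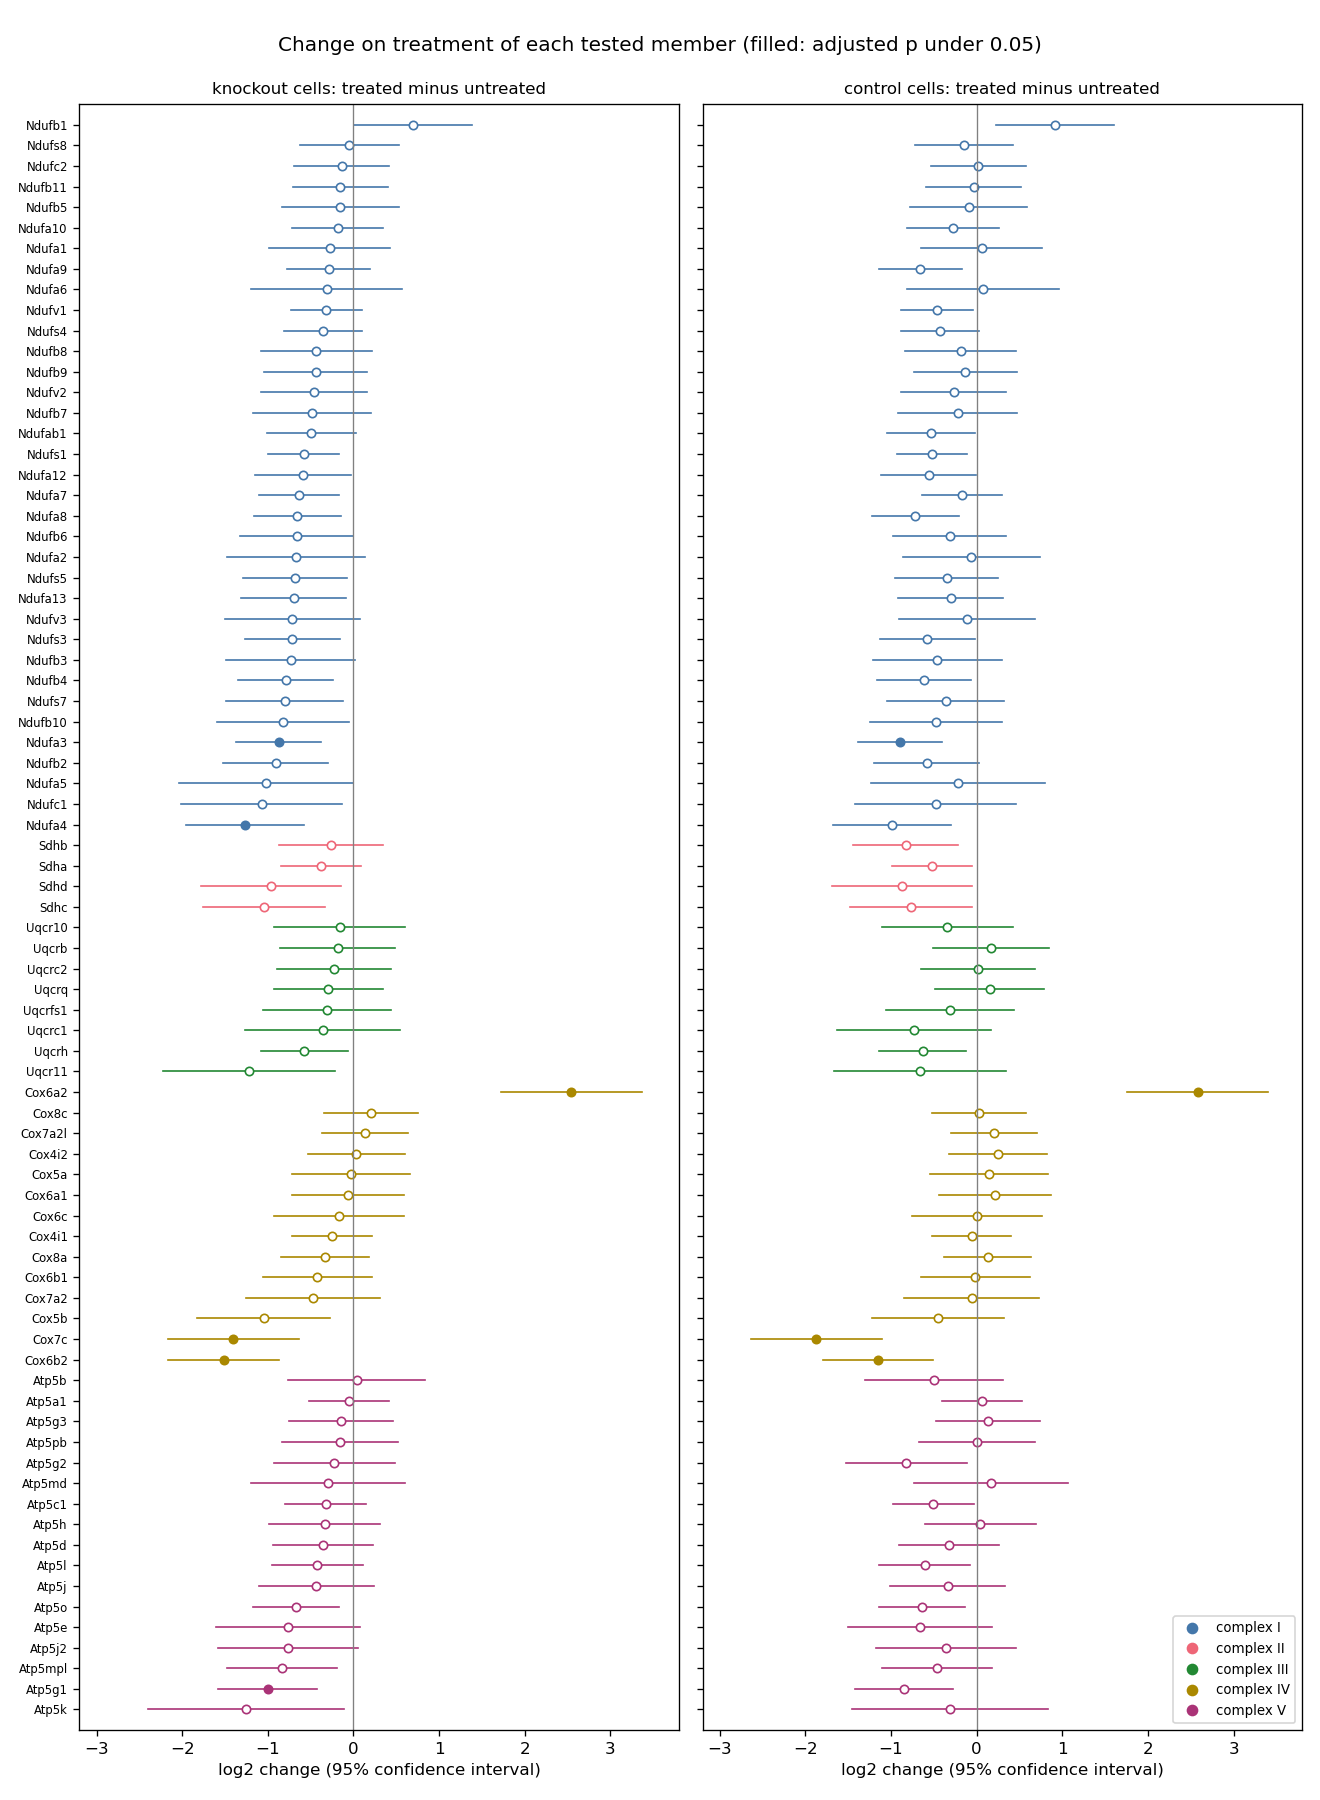
Log2 change on treatment (x axis, treated minus untreated) of the 78 tested genes (rows, ordered within each complex by the change in knockout cells), in knockout cells (left) and control cells (right); bars are 95% confidence intervals from limma and filled points passed an adjusted p of 0.05. Most points lie left of 0, with Cox6a2 far to the right in both panels at 2.55 and 2.58.

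Promoters of 67 of the 81 subunit genes were held by the RefSeq promoter table (mouse build GRCm38.p6, 250 bases before to 50 after each start). NRF1, the ETS factor GABP and YY1 are known regulators of nuclear genes for mitochondrial proteins. Exact matches to 3 core motifs were sought on both strands: GCATGCG for NRF1, CCGGAAG for ETS and GABP, and AAGATGG for YY1. The NRF1 core was found in 14.9% of the 67 genes, against 7.27% of 9623 tested genes and 4.01% of all 27025 genes in the table. The GABP core was found in 25.4%, against 20% and 9.93%, and the YY1 core in 14.9%, against 8.57% and 7.28%. In all, 30 of the 67 held at least 1 of the 3 motifs, and 1 gene, Atp5j for a peripheral stalk subunit of complex V, held all 3. The share of all genes with at least 1 or with all 3 was not computed, so these counts have no background. Atp5j has 2 starts in the table, and all matches lie before the second. Its motifs are shown in capitals, beside the same stretch of Cox7c, Ndufa4 and Atp5g1, which passed the threshold in knockout cells. Of the 5 genes past the threshold that have an entry, Cox7c and Ndufa3 held the YY1 core, outside the 250 bases before the start, and Cox6b2, Ndufa4 and Atp5g1 held none of the 3 motifs. Atp5j was chosen after its matches and its values were seen. Each line gives the 250 bases before the start, 5′ to 3′ on the gene's strand. In Atp5j the first capitals hold an NRF1 match on each strand, offset by 1 base, the second the YY1 core and the third the ETS and GABP core.
Atp5j (chr16:84834977-84835226, minus strand): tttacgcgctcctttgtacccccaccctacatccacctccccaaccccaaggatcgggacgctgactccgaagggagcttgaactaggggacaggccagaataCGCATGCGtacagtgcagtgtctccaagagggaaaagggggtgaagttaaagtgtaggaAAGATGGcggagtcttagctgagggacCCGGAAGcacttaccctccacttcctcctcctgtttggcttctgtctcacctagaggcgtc
Cox7c (chr13:86046796-86047045, minus strand): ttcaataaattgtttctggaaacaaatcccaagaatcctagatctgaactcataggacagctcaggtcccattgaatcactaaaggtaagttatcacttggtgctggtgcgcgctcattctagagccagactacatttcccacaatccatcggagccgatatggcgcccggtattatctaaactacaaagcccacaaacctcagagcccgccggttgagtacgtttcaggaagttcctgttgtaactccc
Ndufa4 (chr6:11907451-11907700, minus strand): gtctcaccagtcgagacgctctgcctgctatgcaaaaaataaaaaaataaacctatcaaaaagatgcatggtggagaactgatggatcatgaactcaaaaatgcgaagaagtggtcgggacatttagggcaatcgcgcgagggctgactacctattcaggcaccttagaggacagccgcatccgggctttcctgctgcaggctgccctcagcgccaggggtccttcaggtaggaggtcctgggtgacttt
Atp5g1 (chr11:96075632-96075881, minus strand): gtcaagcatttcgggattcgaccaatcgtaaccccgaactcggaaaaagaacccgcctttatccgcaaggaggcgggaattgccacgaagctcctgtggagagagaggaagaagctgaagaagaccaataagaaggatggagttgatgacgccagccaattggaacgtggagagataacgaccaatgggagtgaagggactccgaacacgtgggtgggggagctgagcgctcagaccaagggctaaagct
A match says only that these letters stand in the window. Atp5j had log2 differences of -0.44 ± 0.30 in knockout and -0.34 ± 0.30 in control cells and passed in neither. Cox6a2 has no entry in the table.

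Complex IV held the largest treatment response in either direction in both genotypes, that of Cox6a2 above 0 and those of Cox6b2 and Cox7c below. Its tested genes numbered 14, with 1 higher and 2 lower on treatment in either genotype and a median change of -0.21 in knockout and 0.01 in control cells, the second turning to -0.08 under quantile normalization. Both medians were -0.10 without date 2. Of all genes tested, 6.73% rose and 4.45% fell in knockout cells, and 4.21% rose and 2.56% fell in control cells. Cox6a2 encodes the isoform of subunit VIa that is known from heart and skeletal muscle. Its intensity was 760.3, 809.9 and 509.9 on the knockout treated arrays of dates 1, 2 and 3, against 65.7, 184 and 94.6 on the knockout untreated arrays. In control cells it was 733, 1819.8 and 446 with treatment, against 63.4, 239 and 139 without. Every treated array lay above every untreated array. The log2 change was 2.55 ± 0.37 in knockout cells (SE, limma, Benjamini-Hochberg adjusted p = 0.00331), a 5.84-fold change on the scale of intensity plus 13. In control cells it was 2.58 ± 0.37 (adjusted p = 0.00441), or 5.98-fold. A second probe set of Cox6a2, marked as able to cross-hybridize, changed by 2.54 ± 0.46 in knockout and 3.00 ± 0.46 in control cells. The ubiquitous isoform Cox6a1 had log2 changes of -0.07 ± 0.29 in knockout and 0.22 ± 0.29 in control cells and passed in neither.

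Cox6b2, the isoform of subunit VIb known from testis, went the other way at low signal. It read 77.9, 73.3 and 69.9 in knockout treated cells on dates 1, 2 and 3, against 219, 279 and 211 in knockout untreated cells, and the groups did not overlap. In control cells it read 98.2, 79.4 and 67.1 with treatment, against 126, 336 and 174 without, again with no overlap. The change was -1.52 ± 0.29 on the log2 scale in knockout cells (limma, adjusted p = 0.0108) and -1.15 ± 0.29 in control cells (adjusted p = 0.0433). Without date 2 the control value was -0.77 with an adjusted p of 0.0981. Its common counterpart Cox6b1 had changes of -0.42 ± 0.29 and -0.01 ± 0.29 in knockout and control cells.

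Cox7c encodes a small subunit of complex IV that all tissues share. Its intensity was 180.4, 344 and 189 in knockout treated cells on dates 1, 2 and 3, against 659, 680.4 and 539.9 in knockout untreated cells. The control values were 262, 144 and 277 with treatment and 658, 1196 and 747 without. All 6 treated arrays lay below all 6 untreated ones. The log2 change was -1.40 ± 0.34 in knockout (limma, adjusted p = 0.0290) and -1.87 ± 0.34 in control cells (adjusted p = 0.0123). A second probe set of Cox7c changed by -1.65 ± 0.29 and -1.56 ± 0.29 in the same pair of genotypes. Without date 2 the change of Cox7c was -1.63 in knockout cells (adjusted p = 0.00563) and -1.34 in control cells (adjusted p = 0.0115).

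No other gene taken by the complex IV pattern passed with all dates in the fit. Ndufa4, which passed in knockout cells, is now placed in complex IV but was taken by the complex I pattern. Cox5b, which binds zinc at the edge of the complex, read 3268, 2665 and 5829 in knockout treated cells on dates 1, 2 and 3, against 7445, 5480.5 and 11085 in knockout untreated cells. With date 2 left out its change in knockout cells passed, at -1.06 with an adjusted p of 0.0422, and with date 2 it did not (-1.05 ± 0.35, adjusted p = 0.0814). In control cells Cox5b had a change of -0.45 ± 0.35. Cox4i1, Cox5a, Cox6c, Cox7a2 and Cox8a, which encode common subunits, had changes between -0.47 and -0.03 in knockout cells and between -0.06 and 0.15 in control cells. Cox5a was bright on all arrays, with 11554, 25831 and 11858 in knockout treated cells and 11145, 24350.5 and 13922 in knockout untreated cells on dates 1, 2 and 3. Of 7 isoforms known from particular tissues 4 were tested. Besides Cox6a2 and Cox6b2, these were Cox4i2 of lung and Cox8c of testis. Cox4i2 was dim on all arrays, at 47.6, 85.0 and 36.4 in knockout treated and 39.9, 83.0 and 40.9 in knockout untreated cells. Cox4i2 and Cox8c had log2 differences of 0.03 ± 0.26 and 0.20 ± 0.25 in knockout and 0.25 ± 0.26 and 0.02 ± 0.25 in control cells. Cox7a2l, which the pattern took though it encodes a factor that joins complexes III and IV into supercomplexes, had log2 differences of 0.13 ± 0.22 in knockout and 0.20 ± 0.22 in control cells.

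**Figure D3:**
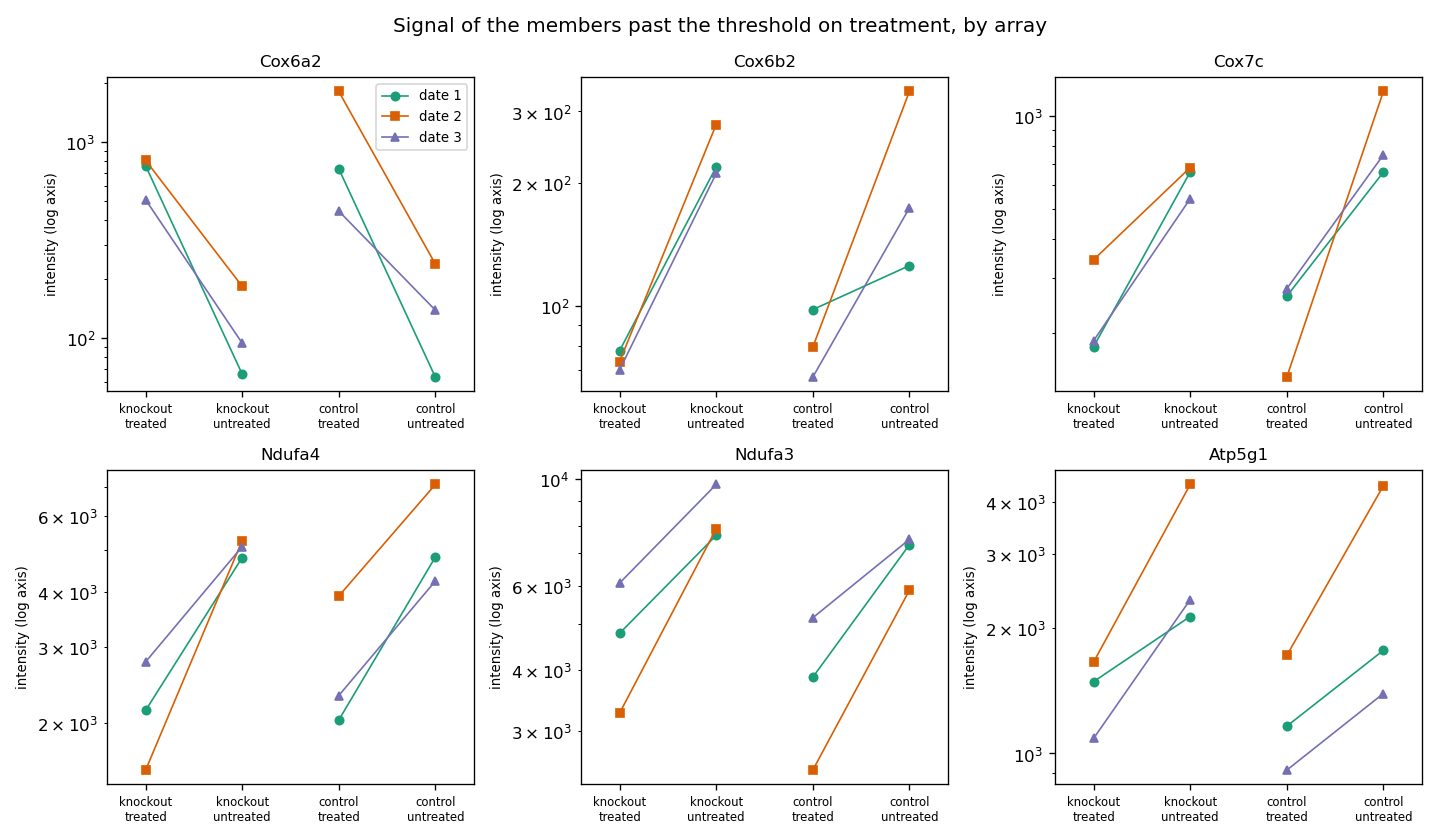
Intensity (log axis) of the 6 genes that passed an adjusted p of 0.05 on treatment in knockout cells, on each array by group; a line joins the treated and untreated arrays of a date. Cox6a2 is higher and Cox6b2, Cox7c, Ndufa4, Ndufa3 and Atp5g1 are lower in treated than in untreated cells on all 3 dates of either genotype; Ndufa4 and Atp5g1 passed in knockout cells alone, and no difference between genotypes passed.

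Nearly every complex I gene lay below 0 on treatment. Of its 35 genes, 34 lay below 0 in knockout cells and 31 in control cells, with medians of -0.59 and -0.31, and 23 and 22 were lower on all 3 dates. These medians were -0.48 and -0.40 without date 2. Counts of each complex read against all genes tested. Of these, 51.8% lay below 0 in knockout and 53.2% in control cells, and 27.0% and 27.6% were lower on all 3 dates. Core subunits carry the flavin and the iron-sulphur clusters or scaffold them, and 6 were tested: Ndufs1, Ndufs3, Ndufs7, Ndufs8, Ndufv1 and Ndufv2. No core gene passed in either genotype. Their median change was -0.52 in knockout and -0.41 in control cells, and all 6 lay below 0 in both. Leaving out date 2 gave medians of -0.42 and -0.41. Ndufs1, which holds iron-sulphur clusters of the electron path, read 2387, 1605 and 2133 in knockout treated cells on dates 1, 2 and 3, against 3382, 2759 and 2937 in knockout untreated cells. In control cells Ndufs1 read 2247, 1768 and 1853 with treatment, against 3088, 2555 and 2779 without. Every treated array of Ndufs1 lay below every untreated one, and the changes of -0.58 ± 0.19 and -0.52 ± 0.19 had adjusted p values of 0.0745 and 0.125 in knockout and control cells. Among the 29 accessory genes the medians were -0.64 in knockout and -0.30 in control cells, with Ndufa3 and Ndufa4 lower in knockout and Ndufa3 in control cells. Leaving out date 2 gave accessory medians of -0.53 and -0.40.

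Ndufa3 encodes an accessory subunit of the membrane arm. Its intensity was 4778, 3260.4 and 6076 in knockout treated cells on dates 1, 2 and 3, against 7633, 7876 and 9740.1 in knockout untreated cells, and the 2 groups did not overlap. In control cells it was 3871, 2482 and 5146 with treatment, against 7297, 5867 and 7488 without, also with no overlap. The log2 change was -0.87 ± 0.22 in knockout cells (limma, adjusted p = 0.0334) and -0.90 ± 0.22 in control cells (adjusted p = 0.0414). Without date 2 these were -0.68 and -0.73 with adjusted p values of 0.0671 and 0.0620.

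Ndufa4 was first described as a complex I subunit and is now placed in complex IV. By its symbol it is counted here with the accessory genes of complex I. It read 2138, 1557 and 2766 in knockout treated cells on dates 1, 2 and 3, against 4808, 5261 and 5098 in knockout untreated cells. In control cells it read 2031, 3921 and 2313 with treatment, against 4823, 7086 and 4247 without. All treated arrays lay below all untreated ones. The change was -1.26 ± 0.31 in knockout cells (limma, adjusted p = 0.0296) and -0.99 ± 0.31 in control cells (adjusted p = 0.0877). Without date 2 it passed in both genotypes, at -1.02 (adjusted p = 0.0266) in knockout and -1.06 (adjusted p = 0.0267) in control cells.

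Ndufb1, another accessory subunit of the membrane arm, was the 1 complex I gene above 0 on treatment in both genotypes. Its intensity was 739, 970.5 and 471 in knockout treated cells on dates 1, 2 and 3, against 368, 773 and 269.6 in knockout untreated cells. Control arrays read 765, 514 and 437 with treatment, against 259.7, 530.2 and 172 without. On dates 1 and 3 it was higher with treatment in both genotypes, and on date 2 the control pair was nearly level. The change was 0.69 ± 0.31 in knockout (adjusted p = 0.180) and 0.92 ± 0.31 in control cells (adjusted p = 0.107). Without date 2 it passed in both, at 0.88 (adjusted p = 0.0323) and 1.40 (adjusted p = 0.00835).

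Among the other accessory genes, Ndufa1 had the highest and Ndufb4 the lowest mean signal of complex I. Ndufa5 had the largest difference between genotypes of complex I in treated cells. Ndufa1, an accessory subunit encoded on the X chromosome, had log2 differences of -0.27 ± 0.32 in knockout and 0.06 ± 0.32 in control cells. Ndufa5 had log2 differences of -1.02 ± 0.45 in knockout and -0.22 ± 0.45 in control cells, and its date values were -0.55, -1.48 and -1.05 in knockout against -0.67, 0.65 and -0.63 in control cells on dates 1, 2 and 3. The date 2 value of Ndufa5 in control cells had the opposite sign to those of its other dates. Ndufb4 was dim, at 25.4, 28.3 and 48.0 in knockout treated and 48.1, 87.3 and 68.6 in knockout untreated cells. It was lower with treatment on each date in each genotype, with log2 differences of -0.79 ± 0.25 (adjusted p = 0.0703) in knockout and -0.61 ± 0.25 (adjusted p = 0.171) in control cells.

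Complex II, the succinate dehydrogenase that also belongs to the TCA cycle, had all 4 genes below 0 on treatment in both genotypes, and none passed. The medians were -0.67 in knockout and -0.80 in control cells, and -0.36 and -0.45 without date 2. Sdha encodes the flavoprotein and read 8670.5, 6025 and 9617 in knockout treated cells on dates 1, 2 and 3, against 9827, 9435 and 11879 in knockout untreated cells. Its control values were 7817, 6757 and 8072 with treatment, against 10330.3, 11325 and 10829 without. Sdha did not overlap between treated and untreated control cells, and its log2 difference was -0.38 ± 0.21 in knockout and -0.52 ± 0.21 in control cells (adjusted p = 0.278 and 0.165). Sdhb, the iron-sulphur subunit, had log2 differences of -0.26 ± 0.27 in knockout and -0.83 ± 0.27 in control cells. Sdhc and Sdhd encode the membrane anchors. Sdhc read 3417, 389 and 1285 in knockout treated cells, against 5006, 1066 and 2915 in knockout untreated cells. Sdhd read 5395, 605 and 5119 in knockout treated cells, against 7280.1, 2318 and 7410.2 in knockout untreated cells. Both were lowest on date 2 in all 4 groups, and within each date both were lower with treatment. Their changes were -1.05 ± 0.32 and -0.96 ± 0.37 in knockout cells (adjusted p = 0.0625 and 0.125) and -0.77 ± 0.32 and -0.87 ± 0.37 in control cells (adjusted p = 0.181 and 0.188).

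Complex III had no gene past the threshold. All 8 lay below 0 in knockout and 5 in control cells, with medians of -0.30 and -0.33. These medians were -0.11 and -0.28 without date 2. The core proteins and Rieske protein of complex III, encoded by Uqcrc1, Uqcrc2 and Uqcrfs1, had a median of -0.31 in either genotype. For these 3 genes leaving out date 2 gave -0.14 in knockout and -0.19 in control cells. Uqcr11, a small subunit, read 1378, 2051 and 1099.9 in knockout treated cells on dates 1, 2 and 3, against 2631, 5077 and 2991 in knockout untreated cells. In control cells Uqcr11 read 1051, 8880.3 and 1038 with treatment, against 2257, 9109 and 1880.0 without. On dates 1 and 3 it was lower with treatment in both genotypes, and on date 2 the control pair differed little. The change was -1.22 ± 0.45 in knockout (adjusted p = 0.113) and -0.66 ± 0.45 in control cells (adjusted p = 0.426). Without date 2 it passed in both, at -1.18 (adjusted p = 0.0180) and -0.97 (adjusted p = 0.0342). Uqcrb, which binds ubiquinone, had changes of -0.18 ± 0.30 and 0.17 ± 0.30, and Uqcr10 had -0.16 ± 0.34 and -0.34 ± 0.34, in knockout and control cells. Uqcrc1, a core protein, had -0.36 ± 0.41 in knockout and -0.73 ± 0.41 in control cells.

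Complex V had 1 gene past the threshold, Atp5g1 in knockout cells. Of its 17 genes 16 lay below 0 in knockout and 12 in control cells, with a median of -0.36 in either. Leaving out date 2 gave -0.37 in knockout and -0.35 in control cells. Atp5g1, Atp5g2 and Atp5g3 encode the same mature subunit c, whose ring turns in the membrane as protons pass. Atp5g1 read 1485, 1654 and 1086 in knockout treated cells on dates 1, 2 and 3, against 2125, 4397 and 2332 in knockout untreated cells. In control cells it read 1162, 1715 and 912 with treatment, against 1764, 4366 and 1391 without. Knockout cells did not overlap, control cells did across dates, and within each date Atp5g1 was lower with treatment. Its change was -1.003 ± 0.258 in knockout (limma, adjusted p = 0.0352) and -0.85 ± 0.26 in control cells (adjusted p = 0.0802). Without date 2 the knockout change was -0.80 with an adjusted p of 0.0564.

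Neither of the other 2 genes for subunit c passed. Atp5g2 had changes of -0.22 ± 0.32 in knockout and -0.82 ± 0.32 in control cells, and Atp5g3 had -0.15 ± 0.27 and 0.13 ± 0.27 in the same order. The 5 genes of the F1 head, which makes ATP, had medians of -0.32 in knockout and -0.50 in control cells with none past the threshold. These medians were -0.19 and -0.14 without date 2. Atp5b encodes the catalytic beta subunit and read 13115, 8968 and 12021 in knockout treated cells on dates 1, 2 and 3, against 11632, 9509 and 11794 in knockout untreated cells. In control cells Atp5b read 11839, 2401 and 10226 with treatment, against 12399.5, 6091 and 10886 without. The 2 control arrays of date 2 were low and the other 10 lay between 8968 and 13115, and the changes were 0.04 ± 0.36 in knockout and -0.50 ± 0.36 in control cells. Atp5d, the delta subunit of the head, had -0.36 ± 0.26 in knockout and -0.32 ± 0.26 in control cells. Atp5k, Atp5l and Atp5md encode small membrane subunits. Treated minus untreated of Atp5k was 0.00, -2.12 and -1.64 on dates 1, 2 and 3 in knockout cells and -0.16, -0.55 and -0.23 in control cells. Its knockout estimate of -1.25 ± 0.51 (adjusted p = 0.147) thus rests on dates 2 and 3, and in control cells it was -0.31 ± 0.51. Atp5l had log2 differences of -0.42 ± 0.24 and -0.60 ± 0.24, and Atp5md had -0.30 ± 0.40 and 0.17 ± 0.40, in knockout and control cells.

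Knockout against control cells separated no subunit gene, with or without treatment. In treated cells 0 of 78 passed, where 0.110% of all genes tested did (13 genes), and 3 had an unadjusted p under 0.05 (3.85% against 9.72%), of which 1 was lower (background 4.72%) and 2 higher (background 5.00%). Values below 0 numbered 50 of 78 (64.1%, against 49.2% of all genes). In untreated cells 0 of 78 passed against 0.0169% of all genes (2 genes), and 0 had an unadjusted p under 0.05 against 2.22% (1.59% lower and 0.626% higher). Values below 0 numbered 22 of 78 (28.2%, against 51.0%). The median log2 difference was -0.11 in treated and 0.11 in untreated cells, with 0.01 and -0.01 over all genes, and the first turned to 0.02 under quantile normalization. The 3 genes below an unadjusted p of 0.05 in treated cells were Atp5g2 (0.89 ± 0.32), Sdhb (0.82 ± 0.27) and Ndufb4 (-0.57 ± 0.25), each with an adjusted p of at least 0.506 in limma. Sdhb read 4758, 7530.1 and 3376 in knockout treated cells on dates 1, 2 and 3, against 3171, 2847 and 2421 in control treated cells. Atp5g2 read 1597, 1071 and 1659 in knockout treated cells, against 1114, 264 and 1443 in control treated cells. Both were higher in knockout cells on each date, and the widest gap was on date 2.

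On date 2 the group mean differed between genotypes in the opposite direction to the other dates. Knockout minus control of the group mean was 0.21, -0.56 and 0.16 in treated and 0.09, -0.14 and 0.38 in untreated cells on dates 1, 2 and 3. Without date 2 the median difference was 0.21 in treated and 0.26 in untreated cells, where 6 of 78 genes lay below 0 in each, and none passed. Over all genes tested these medians were -0.01 and -0.03, with 51.4% and 54.1% below 0. With all dates in the fit, the gene farthest from 0 in treated cells was Ndufa5 for complex I (-0.69 ± 0.45), Sdhb for II, Uqcrc1 for III (0.87 ± 0.41), Cox4i2 for IV (-0.52 ± 0.26) and Atp5g2 for V. In untreated cells it was Ndufb1 (0.54 ± 0.31), Sdhc (0.68 ± 0.32), Uqcrc1 (0.50 ± 0.41), Cox7c (-0.42 ± 0.34) and Atp5d (0.49 ± 0.26) in the same order of complexes. Ndufa5 read 1489.9, 1287 and 1641 in knockout treated cells on dates 1, 2 and 3, against 1357, 7049.9 and 1402 in control treated cells, and the wide gap was on date 2. The half-width of the 95% confidence interval had a median of 0.644 over all genes tested.

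The difference between the responses of knockout and control cells passed for none of the 78 genes, as for 0% of all genes tested. No subunit gene had an unadjusted p under 0.05, against 2.46% of all genes (1.31% lower and 1.15% higher). The estimates lay between -0.94 for Atp5k and 0.60 for Atp5g2, with a median of -0.18 and 58 of 78 below 0 (74.4%, against 47.3% of all genes). Without date 2 the median was -0.04. For Ndufa4 the difference was -0.27 ± 0.44 (95% confidence interval -1.25 to 0.70), for Atp5g1 -0.16 ± 0.36 (-0.97 to 0.66), for Cox6a2 -0.03 ± 0.52 (-1.20 to 1.13) and for Cox7c 0.47 ± 0.48 (-0.61 to 1.55). All 4 intervals include 0, and a p that misses the threshold does not show that the genotypes respond alike.

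As a group the subunit genes were brighter on date 2 than on the other dates, apart from complex II. Date 2 minus the mean of the other dates had a median of 0.91 on the log2 scale over the 78 genes and 0.00 over all genes tested. Date 2 gave the highest array in all 4 groups for 40 of 78 genes (51.3%, against 16.0% of all genes) and the lowest for 9 (11.5%, against 18.5%). The medians were 0.92, 1.09, 1.12 and 0.90 for complexes I, III, IV and V, and -1.39 for complex II. Ndufb10 and Ndufb9 were higher on date 2 by 2.57 and 2.48, and Atp5k by 2.51. Sdhd and Sdhc were lower by 2.82 and 2.56 on date 2, Atp5g2 by 1.59, Uqcrh by 1.20 and Ndufa9 by 1.17. The cytosolic ribosomal protein genes had a median of 1.27 on date 2, and the mitochondrial ribosomal protein genes 0.20. These shifts go with the raised 3′ to 5′ ratios of the date 2 arrays. The part of RNA quality in them was not tested.

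**Figure D4:**
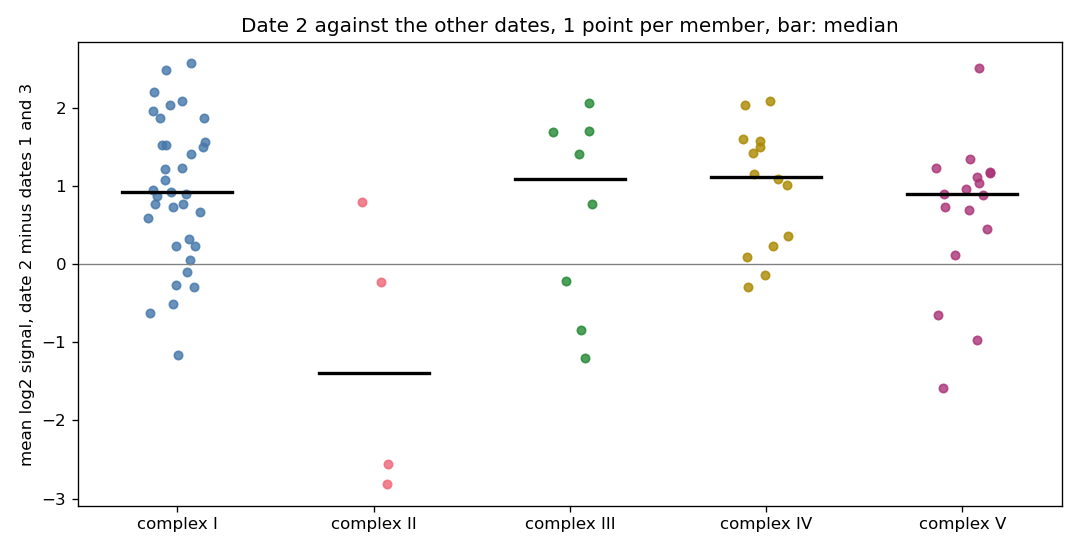
Mean log2 signal of date 2 minus that of dates 1 and 3 (y axis, average over the 4 groups) for each tested subunit gene, by complex (x axis); horizontal bars are medians. Complexes I, III, IV and V sit near 1 with a wide spread, and the membrane anchors Sdhc and Sdhd of complex II lie lowest, at -2.56 and -2.82.

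Most other lists of mitochondrial genes also had medians below 0 on treatment. Their counts read against 4.45% of all genes lower in knockout cells and 2.56% in control cells. Of 43 tested assembly factors 7 fell and 0 rose in knockout cells (median -0.44), and 1 fell in control cells (median -0.37). Without date 2, 3 fell and 0 rose in knockout cells (median -0.42), and 1 fell in control cells (median -0.34). In those fits 578 of all 11815 genes fell in knockout cells and 458 in control cells. The complex III assembly factor Uqcc2 read 713, 1026 and 507 in knockout treated cells on dates 1, 2 and 3, against 1233, 4038 and 1385 in knockout untreated cells. It read 469, 1435 and 474 in control treated cells, against 1096, 2977 and 875 in control untreated cells. Within each date Uqcc2 was lower with treatment, and its log2 change was -1.39 ± 0.25 in knockout (limma, adjusted p = 0.00930) and -1.04 ± 0.25 in control cells (adjusted p = 0.0398). In knockout cells Pet100, which aids complex IV assembly, fell by 1.12 ± 0.24 on the log2 scale (adjusted p = 0.0185). The complex I assembly factors Ndufaf2 and Ndufaf6 changed by -1.08 ± 0.28 and -1.06 ± 0.22, both past the threshold with all dates in the fit. Without date 2 Ndufaf2, Ndufaf6 and Pet100 were at -0.89, -0.95 and -0.94 in knockout cells (adjusted p = 0.0638, 0.0564 and 0.0537). With the mean of all usable probe sets of a gene in place of the one with the highest mean, Uqcc2 in control cells was at -0.60 (adjusted p = 0.156) and Pet100 in knockout cells at -0.72 (adjusted p = 0.0739). With date as a random block the control value of Uqcc2 had an adjusted p of 0.0846.

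Among 14 electron carriers and exchangers 1 fell in both genotypes and none rose, with medians of -0.21 in knockout and -0.24 in control cells. It was Dhodh, the pyrimidine synthesis enzyme that passes electrons to ubiquinone. Dhodh read 451, 316 and 379 in knockout treated cells on dates 1, 2 and 3, against 1564, 775 and 1222 in knockout untreated cells. The control values were 564, 161 and 337 with treatment and 1316, 577 and 1117 without. The groups did not overlap in either genotype, and the change was -1.56 ± 0.24 in knockout (limma, adjusted p = 0.00453) and -1.55 ± 0.24 in control cells (adjusted p = 0.00663). Of 16 genes of the TCA cycle and pyruvate dehydrogenase, 1 fell in knockout cells, the succinyl-CoA ligase gene Suclg2 (-0.88 ± 0.24), and none passed in control cells, with medians of -0.25 and -0.31. Of 15 regulators of mitochondrial gene expression and biogenesis, 1 fell in knockout cells, the mitochondrial DNA polymerase gene Polg (-0.78 ± 0.22), and none passed in control cells, with medians of -0.14 and -0.05. The call of Polg was lost under 16 alternatives, and with the mean of all its probe sets it was at -0.28 (adjusted p = 0.387). Suclg2 was lost under 14, with an adjusted p of 0.107 without date 2.

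Mitochondrial ribosomal protein genes, which serve the subunits made inside the organelle, numbered 73. Of these 5 fell in knockout cells (median -0.44) and 2 in control cells (median -0.33), and none rose. Mrpl34 fell in both, with log2 changes of -0.95 ± 0.20 and -0.86 ± 0.20, and in knockout cells Mrpl12 and Mrpl55 changed by -1.20 ± 0.33 and -1.10 ± 0.27. Mrpl48 fell in control cells, with -0.98 ± 0.21. With the mean of all probe sets of a gene, Mrpl48 and Mrpl34 in control cells were at -0.47 (adjusted p = 0.154) and -0.39 (adjusted p = 0.301), and without date 2 Mrpl55 was at -0.72 (adjusted p = 0.0826) in knockout cells. Of 21 import translocase genes the small Tim chaperones Timm10 and Timm9 fell in knockout cells, with -1.12 ± 0.29 and -1.02 ± 0.23, and none passed in control cells, with medians of -0.48 and -0.32. With the mean of all its probe sets Timm9 was at -0.37 (adjusted p = 0.276). The 43 cytosolic ribosomal protein genes gave medians of 0.03 and 0.07. Of these, Rps24 rose in both genotypes (1.30 ± 0.26 and 1.18 ± 0.26), and Rpl41 (-1.31 ± 0.30) and Rpl12 (-1.01 ± 0.28) fell in knockout cells. With the mean of all its probe sets Rps24 was at 0.26 in knockout and 0.38 in control cells (adjusted p = 0.493 and 0.344), and Rpl41 was at -0.71 (adjusted p = 0.0896). Without date 2 Rpl12 was at -0.58 (adjusted p = 0.147).

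**Figure D5:**
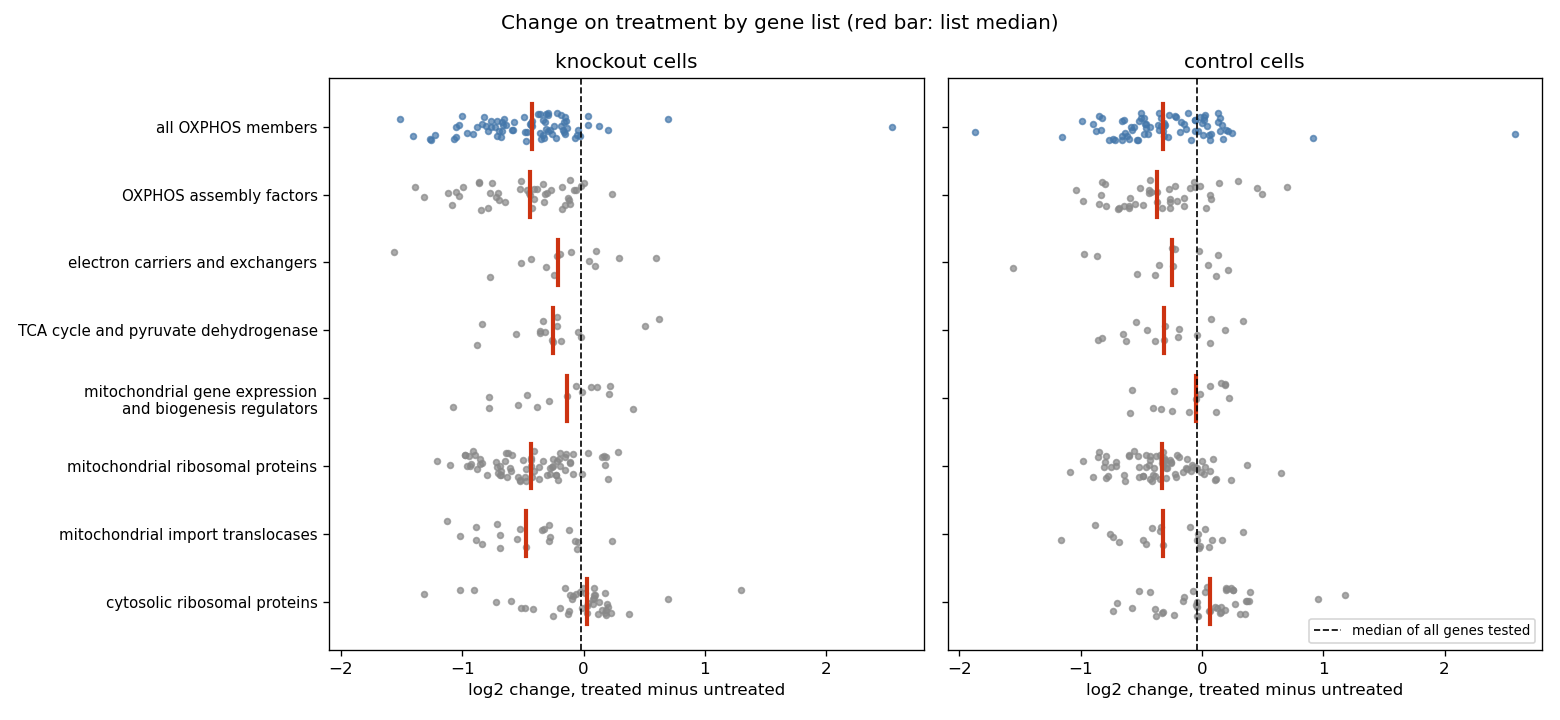
Log2 change on treatment (x axis) of each gene of 8 lists (rows) in knockout cells (left) and control cells (right); red bars are list medians and the dashed line is the median of all genes tested, -0.02 and -0.04. Subunit genes, assembly factors, mitochondrial ribosomal proteins and import translocases have medians between -0.48 and -0.32 in both panels, and cytosolic ribosomal proteins lie near 0.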

How the data were processed

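RNA of 12 samples was hybridised to Affymetrix Mouse430_2 arrays, 1 array a sample, 3 in each of 4 groups. The deposited intensity values are MAS5 signals, per the submitters' processing notes, with no version given there. They are on a linear scale, and the 2% trimmed mean of each array lay near 500 in the deposited values. Each of the 45101 probe sets was turned into log2(intensity + 13), where 13 is the 20th percentile of all values. Probe sets that exceeded the overall median (70.5) on 3 or more arrays were kept, and the kept probe set of 1 symbol with the highest mean stood for its gene (a set marked as cross-hybridizing only where no other passed), which left 11815 genes. Limma 3.58.1 in R 4.3.3 was fitted to 4 group means with array date as a block, and Benjamini-Hochberg adjustment ran over all 11815 genes in each of 5 comparisons. The number of arrays limits the precision.

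The replicate number of a sample stands for its array date, read from the titles. Deviations from group means correlated at 0.357 to 0.753 between the 18 array pairs that share a date, against -0.661 to 0.399 between 36 pairs of arrays from different dates and groups. Named genes are those past the threshold, the extremes of each complex by change, genotype difference or signal, isoforms known from particular tissues, genes that the patterns took from outside their complex, and up to 4 called genes of each other list. Ndufs1, Ndufs3, Cox6a1, Cox6b1, Atp5j and other subunit genes given beside them, and those named for date 2, were chosen after their values were seen. The members and lists were chosen with earlier results of these data known. Alternatives changed the block, pseudocount, filter, scaling, probe set rule, array weights and samples in the fit. Figures were drawn with matplotlib 3.10.9.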

Additional observations from a re-analysis of the deposited data

How the results depend on the processing

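The counts of subunit genes past the threshold are given with the share of all genes that passed in the same fit. In knockout cells 6 passed in the fit reported. Without the date as a replicate block this became 2 (2.56%, against 2.48% of all genes), without a filter on low signals 2 (2.47%, against 4.38%), and with array weights 15 (19.2%, against 19.4%), of which 13 were lower. Leaving out 1 array at a time gave 1 to 11, with 1 without knockout untreated replicate 3 (1.28%, against 3.98%) and 11 without control treated replicate 2 (14.1%, against 14.8%). In control cells 4 passed. This became 1 without the replicate block (1.28%, against 1.4% of all genes), 2 without a filter (2.47%, against 2.44%), 2 with arrays centred on the median (2.56%, against 6.45%), 1 with only the groups compared in the fit (1.28%, against 1.81%), and 17 with array weights (21.8%, against 20.2%), of which 15 were lower. Leaving out 1 array at a time gave 1 to 6 (1.28% to 7.69%, against 2.01% to 8.79% of all genes). The median change in control cells ran from -0.46 to -0.16 over those fits, with -0.46 without control treated replicate 2 and -0.16 without control treated replicate 3. In knockout cells it ran from -0.60 to -0.28. The causes were not tested, except that fits without a filter adjusted over 18193 genes. Array weights were estimated with a convergence warning.

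Of the called genes, Cox6a2 in knockout cells passed under each alternative, and in control cells it was lost without the replicate block (adjusted p = 0.0510). Cox6b2 in knockout cells was lost without knockout untreated replicate 3 (adjusted p = 0.0514), and in control cells under 15 alternatives. Cox7c was lost under 7 alternatives in knockout and 3 in control cells, Ndufa3 under 13 and 16, and in knockout cells Ndufa4 under 8 and Atp5g1 under 12. The calls of Ndufa3 in both genotypes and of Cox6b2 in control cells were thus lost under most of the alternatives tried. No call of a named gene reversed. The genotype comparisons and the difference of responses called no subunit gene under any alternative, and the median of the treated genotype comparison, -0.11, ran from -0.32 to 0.10 when 1 array was left out. The calls of genes named from other lists were each lost under 1 to 16 alternatives. The 3 subunit genes at background have no test.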

Other observations

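The 48 subunit genes with more than 1 usable probe set had 79 others besides the one reported. In knockout cells 66 of these 79 lay below 0 on treatment, with a median log2 change of -0.46, and 13 had the opposite sign to the gene's reported probe set. In control cells 56 lay below 0, with a median of -0.22, and 29 had the opposite sign. For Sdha a dim second probe set gave 0.97 in knockout and 0.06 in control cells, where the reported one gave -0.38 and -0.52. For Ndufa3 the second probe set gave -0.91 in knockout and -0.75 in control cells, close to the reported -0.87 and -0.90.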
